A study of Homo sapiens with 4 samples.

Results

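Splicing of 8 myosin and myosin phosphatase genes was followed in U87MG cells after transfection of a decoy oligonucleotide against the splicing factors RBFOX1 and RBFOX2. The genes were MPRIP, PPP1R12A, MYO18A, MYL6, MYH9, MYH10, MYO5A and MYO6, and every alternative splicing event carrying one of these symbols was taken, 122 of 121269 events in all. The 8 genes were chosen from earlier results of the same comparison, by the difference in exon inclusion between the 2 groups, so that the differences in inclusion given here describe the chosen genes and test nothing about them as a group. Of the 122 events, 92 were skipped exons, 28 were pairs of mutually exclusive exons and 2 were alternative 5′ splice sites. No alternative 3′ splice site or retained intron carried one of the symbols.

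U87MG is an established glioblastoma cell line. The group called RBFOXi (2 libraries) received a single-stranded 2′-O-methyl RNA made of repeats of the RBFOX binding motif, and the control group, SCRM (2 libraries), received a scrambled oligonucleotide. Both were transfected at 2.5 µM with a lipid reagent, and the study describes the 2 libraries of each group as independent biological replicates. The labels give the dye Cy5 on the oligonucleotide of RBFOXi replicate 1 and on no other. The proportion spliced in (PSI) runs from 0, where every transcript skips the exon, to 1, where every transcript holds it. It was computed per library from inclusion and skipping counts, each divided by the effective length deposited with it. Delta PSI is the difference of the 2 group means, RBFOXi minus SCRM. Each library was made from a whole culture, so a PSI cannot tell apart cells that mix both forms from a mixture of cells with different forms.

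Nonmuscle myosin II is a hexamer of 2 heavy chains (MYH9 or MYH10), essential light chains (MYL6) and regulatory light chains, and pulls on actin filaments in stress fibres and the cell cortex. It is switched on by phosphorylation of the regulatory light chain, which the myosin phosphatase removes. PPP1R12A (MYPT1) is the subunit that brings the phosphatase to myosin, and MPRIP ties that subunit to actin filaments. MYO5A and MYO6 carry cargo along actin in opposite directions, and MYO18A is an unconventional myosin with a PDZ domain. RBFOX proteins bind UGCAUG in introns; in general they raise inclusion of an exon when they bind downstream of it and lower it when they bind upstream.

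The sequences shown first are the alternative exons on which the results turn, given 5′ to 3′ on the strand of the gene from the GRCh37 genome (hg19), with capitals marking an annotated stop codon. For MPRIP and MYL6 only the coding part and the stop codon are shown. For MYL6 the start of the next exon is added, which is read in place of the alternative exon when that exon is skipped.
MPRIP 63 nt exon, chr17:17083921-17083953 (+): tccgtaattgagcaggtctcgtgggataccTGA
MYL6 45 nt exon, chr12:56554410-56554438 (+): cgtttgtgaggcatatcctgtcggggTGA
MYL6 next exon, chr12:56555171-56555199 (+): agctcgtccgcatggtgctgaatggcTGA
MYO18A 45 nt exon, chr17:27412622-27412666 (-): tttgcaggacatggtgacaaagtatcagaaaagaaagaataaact
MYO18A 12 nt exon, chr17:27443462-27443473 (-): aagctgctgaag
MYO5A 81 nt exon, chr15:52635314-52635394 (-): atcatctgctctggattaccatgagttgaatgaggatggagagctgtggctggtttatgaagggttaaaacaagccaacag
MYO5A 9 nt exon, chr15:52641015-52641023 (-): gatgacaag

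The intron stretches beside the 6 exons whose inclusion differed most are shown next, with capitals marking TGCATG, the DNA form of UGCAUG, or GCATG alone for the MYO18A 45 nt exon. Downstream stretches start at the first base of the intron, except for MYL6, where 30 bases around the motif are shown. Upstream stretches end at the last base before the exon.
MPRIP 63 nt exon, downstream, chr17:17083984-17084043 (+): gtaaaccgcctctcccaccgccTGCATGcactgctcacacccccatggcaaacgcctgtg
MYO18A 45 nt exon, downstream, chr17:27412562-27412621 (-): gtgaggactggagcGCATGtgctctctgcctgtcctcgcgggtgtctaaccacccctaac
MYL6 45 nt exon, downstream, chr12:56554563-56554592 (+): ctggcatgtttcTGCATGgagctgactagg
PPP1R12A 168 nt exon, downstream, chr12:80199866-80199945 (-): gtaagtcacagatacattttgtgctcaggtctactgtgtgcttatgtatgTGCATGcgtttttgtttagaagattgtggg
MYO18A 12 nt exon, upstream, chr17:27443474-27443533 (-): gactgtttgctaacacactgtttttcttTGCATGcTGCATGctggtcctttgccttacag
MYO5A 81 nt exon, upstream, chr15:52635395-52635494 (-): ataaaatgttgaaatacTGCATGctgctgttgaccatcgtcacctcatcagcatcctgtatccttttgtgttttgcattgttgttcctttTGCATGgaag

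Inclusion of a MPRIP exon and of a MYO18A exon fell in cells with RBFOXi, each by more than 0.4 in PSI, and these were the 2 member events called changed. A further 4 exons, in MYL6, PPP1R12A, MYO5A and MYO18A, had an absolute delta PSI of at least 0.1 and no overlap between the groups, and did not pass the test. A test needed 5 or more counts per library, 20 on average, and 4 counts for each form summed over libraries, and 40 of the 92 skipped exon events met this. Calls needed an adjusted p under 0.05 (limma on the log2 odds of inclusion, Benjamini-Hochberg over all tested events of the type) and a delta PSI of 0.1 or more in size. Of all 39615 tested skipped exon events, 0.0682% were called, and 0.053% were called with lower inclusion, the direction of both member calls. The groups did not overlap for 12 of the 40 tested member events, against 30.8% of all tested events. With the minimum of 0.1 added these were 6 of 40, against 3.09%. These shares are set side by side as a description, since the genes were chosen on this comparison. The median delta PSI was -6.46e-05 over the 40 member events and -5.65e-05 over all tested events. In 76 of the 92 skipped exon events PSI was at least 0.9 in every library, so most of the events deposited for these genes were exons that nearly every transcript held.

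**Figure D1:**
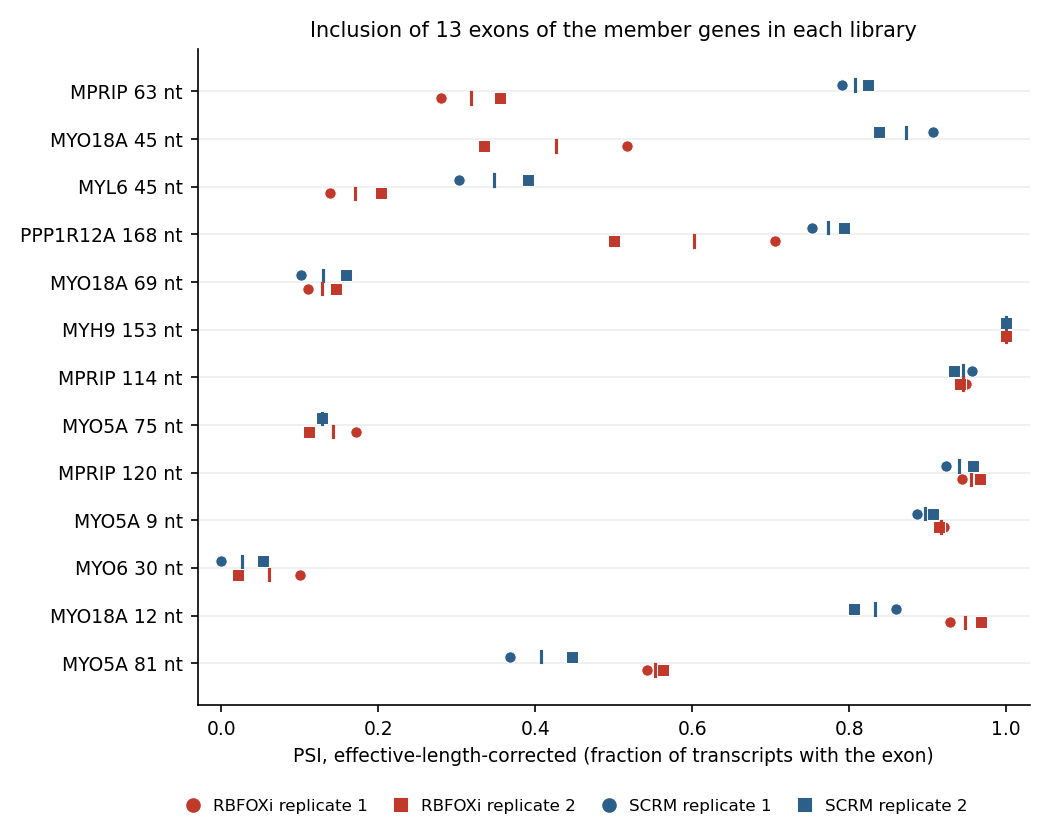
PSI (x axis, fraction from 0 to 1) of the 13 exons described, ordered by delta PSI, with circles for replicate 1, squares for replicate 2 and a vertical tick at each group's mean. The RBFOXi points of the MPRIP 63 nt exon, 0.279 and 0.356, lie far left of its SCRM points, 0.791 and 0.824, and the MYO5A 81 nt exon at the bottom lies the other way.

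In MPRIP, the scaffold between the phosphatase and actin, the 63 nt exon had PSI values of 0.279 and 0.356 in the RBFOXi libraries and 0.791 and 0.824 in the SCRM libraries. Both RBFOXi libraries therefore held the exon in a minority of transcripts and both SCRM libraries in most. The difference was -0.489, from 0.318 ± 0.0539 to 0.807 ± 0.0233 in SCRM (SD, n = 2 each), with a log2 odds difference of -3.18 ± 0.24 (SE) and an adjusted p of 9.19e-05 (limma). It rested on 3901 to 6152 counts per library. Among all tested skipped exon events it had the second smallest p, at rank 2, and rank 9 from the lowest delta PSI. With replicate 1 alone the difference was -0.511 and with replicate 2 alone -0.468. With a pseudocount of 0.1 in the log2 odds the call was lost, at an adjusted p of 0.128 (limma). In GENCODE 44 models lifted to this build, 2 transcripts held the exon, and in both the reading frame ended inside it, after 30 coding nt. In transcripts that join the neighbouring exons without it, the frame went on for 69 nt into the next exon. The forms with and without the exon thus differ in the C-terminal end of the protein.

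The other MPRIP exons moved little. The 120 nt exon had PSI values of 0.944 and 0.967 with RBFOXi and 0.923 and 0.958 with SCRM, and the 114 nt exon had 0.949 and 0.942 against 0.957 and 0.933. The groups overlapped for both, with delta PSI of 0.015 and 4.72e-04. In 21 of the 24 skipped exon events of MPRIP, PSI was at least 0.9 in every library. Of the 24, 10 were tested. An outlying delta PSI of 0.201 came from an untested event with between 1 and 7 counts per library.

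In PPP1R12A, the targeting subunit of the phosphatase, the 168 nt exon (chr12:80199946-80200113, minus strand) had PSI values of 0.705 and 0.5002 with RBFOXi and 0.753 and 0.793 with SCRM. Both RBFOXi values were below both SCRM values, but the RBFOXi libraries lay 0.205 apart, further than the group means did. Delta PSI was -0.170 (0.603 ± 0.145 against 0.773 ± 0.0285, SD, n = 2 each) and the adjusted p was 1.000 in limma, with an unadjusted p of 0.0702. Without RBFOXi replicate 2 the difference was -0.0681 and without RBFOXi replicate 1 it was -0.273. Skipping counts were 24, 58, 4 and 30, so that SCRM replicate 1 rested on 38 counts in all. The exon is in frame: transcripts that hold it have 1435 or, in 1 transcript, 1330 coding nt after the exon before it. The 1 coding transcript that skips it between the same neighbours has 1267. A second event pairs the same exon with a more distant neighbour and had PSI values of 0.970 and 0.975 against 1 and 0.986, on at most 1 skipping count per library. In 11 of the 12 skipped exon events of PPP1R12A, PSI was at least 0.9 in every library.

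MYL6 encodes the essential light chain, and its 45 nt exon separates the nonmuscle form of the protein (exon held) from the smooth muscle form (exon skipped). Its PSI was 0.138 and 0.203 in the RBFOXi libraries and 0.302 and 0.391 in the SCRM libraries. All 4 libraries thus mostly skipped the exon, and both RBFOXi libraries lay below both SCRM libraries. Delta PSI was -0.176 (0.171 ± 0.046 against 0.347 ± 0.063, SD, n = 2 each), with a log2 odds difference of -1.38 ± 0.26 (SE) and an adjusted p of 0.108 (limma). Of the member exons, MYO18A 45 nt was the last inside the threshold, at an adjusted p of 0.00768, and MYL6 the first outside it. The MYL6 exon had between 5509 and 11963 counts per library, far more than the MYO18A exon. It was called with a pseudocount of 1, with a looser count filter and with the replicate number as a block. Without RBFOXi replicate 2 its delta PSI was -0.209. Adjusted p over all alternatives ran from 1.71e-09, with that block, to 0.976 (limma or the quasi-binomial F test). The annotated frame has 26 coding nt after the preceding exon both with and without this exon. The 2 forms therefore end in stretches of the same length but with different codons, as the sequences above show. The remaining MYL6 exons were held or skipped almost completely: 5 events had a PSI of at least 0.971 in every library, and the 19 nt exon in 2 events had at most 0.0166. Reads were aligned uniquely, so reads shared with near-identical copies of this gene would be missing from the counts.

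The heavy chains of nonmuscle myosin II showed no alternative exon that could be followed. In MYH9, all 14 skipped exon events had a PSI of at least 0.992 in every library, and no library had more than 4 skipping counts against up to 61292 counts in all. The tested skipped exon event with the largest difference was a 153 nt exon (chr22:36712562-36712714) with a delta PSI of 2.67e-04. In MYH10 a single event was deposited, a 30 nt exon at chr17:8479961-8479990 the size of the neuronal insert known in the motor domain of this heavy chain. It had 1 inclusion count in RBFOXi replicate 1 and 0 in the other 3 libraries, beside 1 to 3 skipping counts in each. It was not tested, and with 1 to 3 counts a library its inclusion could not be measured at this depth.

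In MYO18A, the 45 nt exon had PSI values of 0.517 and 0.335 in the RBFOXi libraries and 0.907 and 0.838 in the SCRM libraries. The groups did not overlap, although the RBFOXi libraries lay 0.182 apart. Delta PSI was -0.446 (0.426 ± 0.129 against 0.872 ± 0.0489, SD, n = 2 each), with a log2 odds difference of -3.26 ± 0.42 (SE) and an adjusted p of 0.00768 (limma), on 452 to 639 counts per library. The call was lost with a pseudocount of 0.1, at an adjusted p of 0.498 (limma). It was also lost without SCRM replicate 1, at an adjusted p of 0.331 and a delta PSI of -0.412, and without SCRM replicate 2, at 0.106 and -0.481, in fits where the lone SCRM library is assumed to vary like the RBFOXi libraries. The exon is wholly coding and in frame near the C-terminal end. After the preceding exon, the annotated transcript that holds it has 310 coding nt. Transcripts that skip it and are still coding there have 265.

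A second MYO18A exon, of 12 nt, went the other way. Its PSI was 0.928 and 0.968 with RBFOXi and 0.860 and 0.807 with SCRM, so that both RBFOXi libraries were above both SCRM libraries. Delta PSI was 0.115, with an unadjusted p of 0.013 and an adjusted p of 1.000 in limma. The counts were few, from 12 in SCRM replicate 1 to 98 in SCRM replicate 2. The measured size depends on the effective length, which was 10 for inclusion and 86 for skipping. As plain shares of counts, inclusion was 0.600 and 0.778 with RBFOXi and 0.417 and 0.327 with SCRM, a difference of 0.317 in place of 0.115. The third alternative exon, of 69 nt, carries a stop codon after 39 coding nt and was mostly skipped, with PSI values of 0.111 and 0.147 against 0.102 and 0.159. The other 11 MYO18A exons had a PSI of at least 0.971 in every library.

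MYO5A carries its alternative exons in the tail, where they decide which partners the motor binds: the 9 nt exon is exon B, tied to a dynein light chain, the 81 nt exon is exon D, tied to Rab10, and the 75 nt exon is exon F, tied to melanophilin on melanosomes. The 81 nt exon had PSI values of 0.543 and 0.563 in the RBFOXi libraries and 0.368 and 0.446 in the SCRM libraries. Both RBFOXi libraries were above both SCRM libraries, by at least 0.0961. Delta PSI was 0.146 (0.553 ± 0.0143 against 0.407 ± 0.0558, SD, n = 2 each), with an unadjusted p of 0.0352 and an adjusted p of 1.000 in limma. The counts were 295, 328, 124 and 523 in RBFOXi replicates 1 and 2 and SCRM replicates 1 and 2. The 75 nt exon was mostly skipped, at 0.172 and 0.112 against 0.130 and 0.128, with overlapping groups. The 9 nt exon had PSI values of 0.921 and 0.914 against 0.887 and 0.906, which do not overlap but differ by 0.021 on average. Its effective length for inclusion was 4, and as plain shares of counts it was held at 0.352 and 0.331 against 0.267 and 0.311. Whether most transcripts hold the 9 nt exon therefore depends on the length correction. In the other 12 skipped exon events of MYO5A, PSI was at least 0.951 in every library.

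MYO6 was the least covered gene after MYH10. Its 30 nt exon had PSI values of 0.101 and 0.0218 with RBFOXi and 0 and 0.0529 with SCRM, on 3, 1, 0 and 2 inclusion counts. The groups overlapped, and 0 of 25 counts in SCRM replicate 1 allow a plain share of up to 12%. A second tail exon, of 27 nt, had 3 inclusion counts in RBFOXi replicate 1 and 0 in the other 3 libraries, and was not tested. Each of these exons was thus skipped in most transcripts of all 4 libraries.

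**Figure D2:**
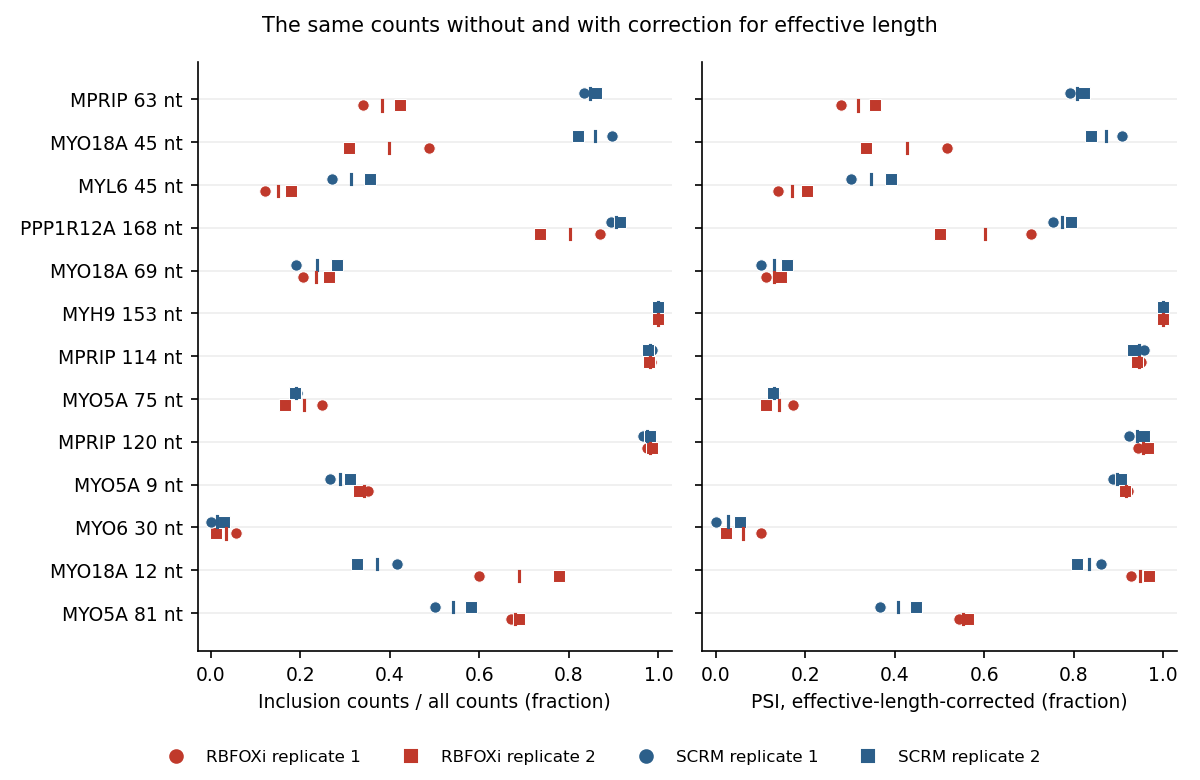
Inclusion of the same 13 exons in each library as a plain share of counts (left) and as PSI corrected for effective length (right), both as fractions, with the symbols of the plot of PSI by library. The 12 nt exon of MYO18A and the 9 nt exon of MYO5A move furthest to the right under the correction, the MYO5A exon from 0.341 to 0.918 in the mean of the RBFOXi libraries.

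The exons picked for a delta PSI of 0.1 or more in size without overlap also differed in the side on which UGCAUG lay. Of these exons, only MPRIP 63 nt and MYO18A 45 nt were called. Exons of the whole table picked in the same way were not searched as a set, so the pattern describes chosen exons only. Copies were searched in the 300 nt of intron next to each exon on the strand of the gene, counting the base next to the exon as 1. The motif began at nt 23 and 240 downstream of the MPRIP 63 nt exon, at nt 121 downstream of the MYL6 exon and at nt 51 and 152 downstream of the PPP1R12A exon, and none of these had a copy upstream. All 3 had lower PSI in both RBFOXi libraries. Upstream of the MYO5A 81 nt exon copies ended 5 and 78 nt before the exon, and upstream of the MYO18A 12 nt exon 20 and 27 nt before it, with no copy downstream within 300 nt of either. Both had higher PSI in both RBFOXi libraries. The MYO18A 45 nt exon had no UGCAUG within 300 nt and its only copy in the downstream intron began at nt 3053. It had GCAUG, the motif without its first base, at nt 15 and 92 downstream. GCAUG outside UGCAUG also lay on the opposite side of other exons, ending 276 nt upstream of the MPRIP 63 nt exon and 284 nt upstream of the PPP1R12A exon, and beginning at nt 207 downstream of the MYO18A 12 nt exon.

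Over the 38 distinct tested exons of the members, 6 had UGCAUG within 300 nt downstream and 6 upstream, 15.8% each. Over the 30634 distinct tested exons of the whole table the shares were 8.36% downstream and 8.16% upstream, and 15.8% had it on either side. Not every exon with a motif differed: 7 other tested member exons had a copy within 300 nt, 3 downstream and 4 upstream. Their absolute delta PSI was at most 0.0349. Of these 7, 6 had a PSI of at least 0.969 in every library, among them the MYH9 153 nt exon with a copy at nt 118 downstream and the MPRIP 90 nt exon with a copy at nt 47 downstream. The seventh was the MYO6 30 nt exon, nearly always skipped. The 4 with an upstream copy were MYO5A 172 nt, MYO18A 66 nt, PPP1R12A 177 nt and MYO6 30 nt. The first 3 had a PSI near 1, where a rise could hardly show, and MYO6 had few counts. The 3 with a downstream copy, MYH9 153 nt, MPRIP 90 nt and MYO18A 177 nt, also had a PSI near 1, from which a fall could show. Their delta PSI was 2.67e-04, -0.00162 and 0.00785. Why these 7 exons did not differ was not tested. The shorter GCAUG, which UGCAUG contains, was found on either side of 42% of all tested exons and of 9 of the 13 exons described. These matches are letters in a window and no evidence of binding.

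**Figure D3:**
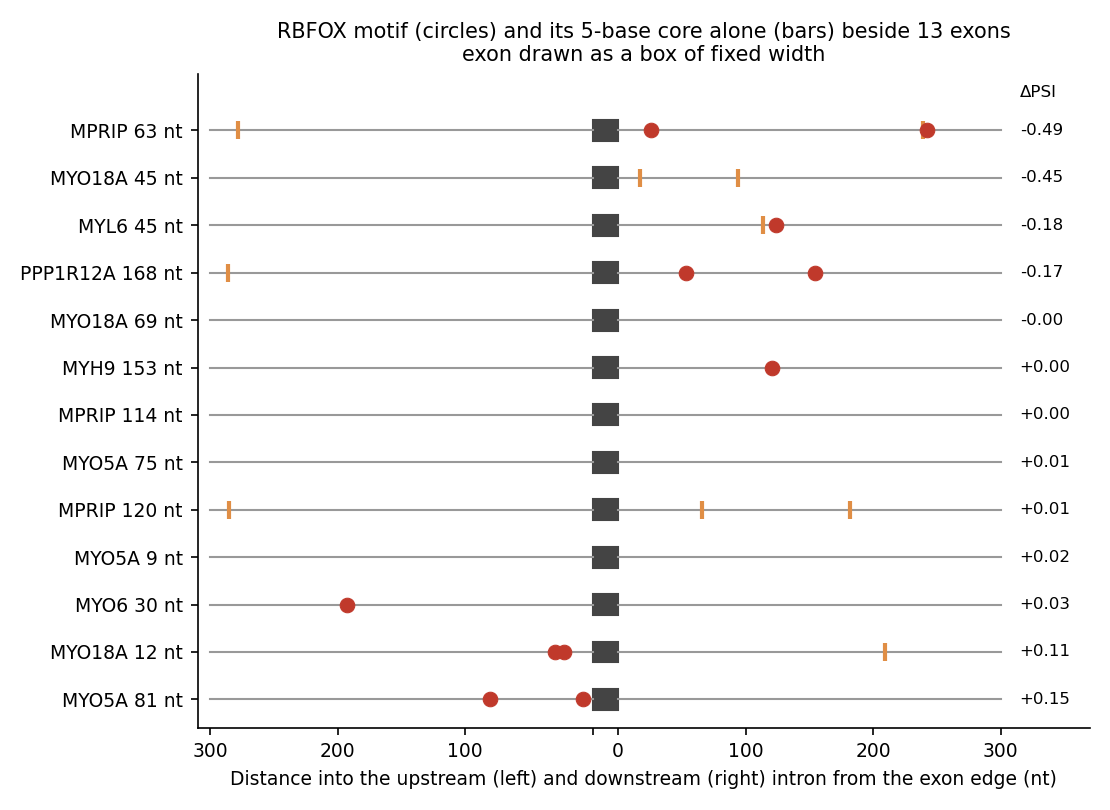
Positions of the motif UGCAUG (circles) and of its 5-base core outside it (bars) in the 300 nt of intron on each side of the 13 exons, ordered by delta PSI, which is printed at the right. The x axis is the distance from the exon edge in nt, and the exon is a box of fixed width. Circles lie to the right for the MPRIP, MYL6 and PPP1R12A exons with negative delta PSI and to the left for the MYO18A 12 nt and MYO5A 81 nt exons with positive delta PSI.

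SCRM replicate 1 stood apart in coverage. Inclusion counts of 57 exons held in nearly all transcripts (PSI of at least 0.9 in every library) were compared along the representative transcript of each gene. The ratio of RBFOXi replicate 1 to replicate 2 lay between 0.666 and 1.19 at every exon. The ratio of SCRM replicate 1 to replicate 2 ran from 1.48 in MYL6, 562 nt from the 3′ end, down to 0.0343 in PPP1R12A, 5151 nt from it. Within MYH9 it went from 0.491 at 2607 nt to 0.108 at 7114 nt, and within MYO5A from 0.281 at 7574 nt to 0.0359 at 11832 nt. Within MYO18A it went from 0.752 to 0.244, and within MPRIP from 0.496 at 8113 nt to 0.299 at 14865 nt. Distance did not order the ratio between genes, since PPP1R12A had 0.207 at 2599 nt. In each of these genes that library had relatively fewer reads at the exon farthest from the 3′ end than at the nearest. Among the exons described, its fewest counts were 12, for the MYO18A 12 nt exon, 25, for the MYO6 30 nt exon, and 38, for the PPP1R12A 168 nt exon. The part of this coverage in the results was not tested. Without SCRM replicate 1, delta PSI was -0.506 for MPRIP, -0.412 for the MYO18A 45 nt exon, -0.221 for MYL6, -0.191 for PPP1R12A, 0.141 for the MYO18A 12 nt exon and 0.106 for the MYO5A 81 nt exon.

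**Figure D4:**
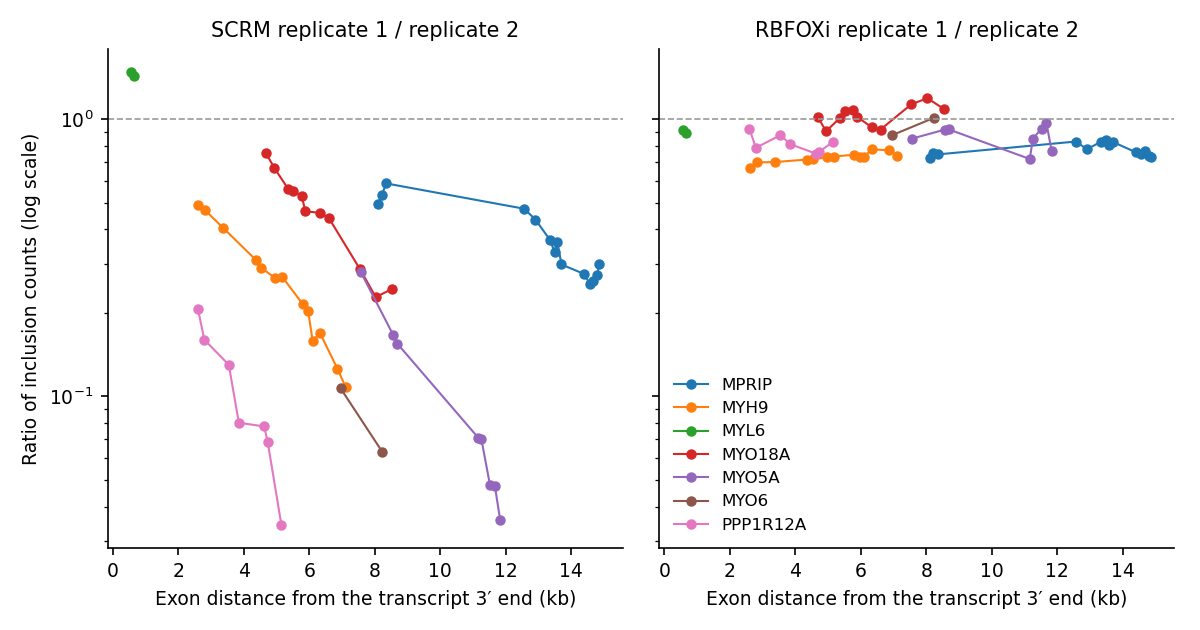
Ratio of inclusion counts between the 2 libraries of a group (y axis, log scale) against the distance of an exon from the 3′ end of the transcript in kb, for 57 exons of 7 member genes, coloured by gene. The SCRM ratios on the left span 1.48 to 0.0343 and are lower at the farthest than at the nearest exon of each gene, and the RBFOXi ratios on the right stay between 0.666 and 1.19.

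The mutually exclusive exon events of the members gave no further difference. Of 28 events 27 were tested and 0 were called, against 0% of 26176 tested events in the whole table, and 1 of the 27 had an unadjusted p under 0.05 in limma, against 1.51% of all tested. The largest absolute delta PSI was 0.0555, in PPP1R12A, and the groups did not overlap for 5 of the 27, against 24.4% of all tested. The 2 alternative 5′ splice sites, in MYO18A and PPP1R12A, were tested with 0 calls, against 0% of 2281, and had delta PSI of 0.00106 and 0.0101.

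Other genes of the actomyosin system were listed by role: 12 other myosin heavy chains, 17 light chains, kinases and phosphatase subunits, and 6 actin partners of myosin. Over all event types 255 of their events were tested and 0 were called by limma, with 11 at an unadjusted p under 0.05, against 2.81% of all tested events, and 1 called by a quasi-binomial F test. Of their 146 tested skipped exon events, 53 did not overlap between the groups and 6 also had an absolute delta PSI of at least 0.1, with a median delta PSI of -2.16e-04. The shares of all tested skipped exon events were 30.8% and 3.09%. The 5 largest were 2 overlapping exons of MYO9A and 3 exons of SVIL, which encodes supervillin, a binder of myosin II and actin. The MYO9A exons, of 216 and 213 nt, had delta PSI of -0.248 and -0.231, with 5 counts in SCRM replicate 1 for each. The SVIL exons of 171 and 930 nt had delta PSI of -0.229 and -0.220, and the SVIL exon of 81 nt had 0.225. The 81 nt exon had PSI values of 0.913 and 0.906 with RBFOXi. In SCRM they were 0.538, on 9 counts in SCRM replicate 1, and 0.830. The 930 nt exon was the best covered, with PSI values of 0.567 and 0.554 against 0.743 and 0.817. None of the 5 passed the test, with adjusted p of 1.000 in limma. The smallest adjusted p over the listed genes was 0.135 (limma), for another skipped exon event of the actin partners of myosin.

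Summed counts over the skipped exon events ran from 114415530 to 136097319 per library, with reads that match several events counted in each. Of the markers of the cell line, VIM, CD44, TNC and FN1 each had between 189745 and 1834284 counts per library and NES had 179 to 432, and GFAP had no event. PTPRC, EPCAM and PECAM1, markers of immune, epithelial and endothelial cells, had no event either, so their levels were not measured here.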

How the data were processed

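The RNA-seq data came from U87MG cells given 2.5 µM RBFOXi or SCRM (2 libraries each), as 5 deposited event tables. Reads had been aligned by the authors to hg19 (STAR 2.4.2a, unique alignments) and assigned to splicing events by rMATS on UCSC known genes. The deposited cells used here hold unnormalized counts of inclusion and skipping reads in each library, beside 2 effective lengths per event. The authors' p-values, FDR and inclusion differences were not used.

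The members and gene lists were chosen with earlier results of these data known. Across all tested events of a type, log2 odds of inclusion (0.5 added to each count) were modelled by condition alone on the 4 libraries, using limma 3.58.1 under R 4.3.3. Residual spread covers 2 replicates a group. Other pseudocounts, filters, thresholds, a quasi-binomial F test, a replicate block and omission of single libraries were tried. Described in full were alternative exons with a mean PSI between 0.05 and 0.95 (or, failing these, the largest delta PSI of a gene) and those differing by at least 0.1 without overlap, at most 3 a gene. Sequences came from GRCh37, whose splice site letters matched in 99.98% of 39667 skipped exon events (AG before the exon), and gene models from GENCODE 44. An upper limit for 0 counts is 3 counts of the total and covers counting error only. Python 3.11.15, numpy 2.4.6, pandas 2.3.3 and matplotlib 3.10.9 were used.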

Additional observations from a re-analysis of the deposited data

How the results depend on the processing

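The 2 member calls (MPRIP 63 nt and MYO18A 45 nt) stood with the quasi-binomial F test, the stricter count filter, a delta PSI minimum of 0.05 or 0.2 and 1 event per exon. With a pseudocount of 0.1 there were 0 member calls, at adjusted p of 0.128 and 0.498, and 1 in the whole table in place of 27. Leaving out 1 library leaves a group of 1, which is then assumed to vary like the other group, so these fits bear on the values more than on the p-values. They gave 1 to 3 member calls: MPRIP was called each time, MYO18A was lost without either SCRM library, and MYL6 was added without RBFOXi replicate 2. Over the whole table, leaving out 1 library gave 3 (without SCRM replicate 1) to 63 (without RBFOXi replicate 1) skipped exon calls, 0 to 4 calls in the other actomyosin genes and 5 to 1449 calls of the other 4 event types, the last without SCRM replicate 2. The looser count filter gave 44 skipped exon calls and the quasi-binomial F test 45. The quasi-binomial test also gave 1 call in the other actomyosin genes (SVIL 171 nt) and 8 of the other event types, and a pseudocount of 1 gave 2 of these. The cause of these changes was not tested.

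Whether the replicate numbers of the labels pair the libraries is not stated, and the main fit did not pair them. In both groups the sample names end in D_R for replicate 1 and in P for replicate 2, and what these endings stand for is not given. Deviations of same-numbered libraries correlated at 0.0944 over 39615 events, with 2 pairs. With the replicate block there were 119 skipped exon calls, 3 in the members (MYL6 added), 1 in the other actomyosin genes (SVIL) and 77 of the other event types.

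Directions turned only for exons with overlapping groups. Leaving out 1 library at a time, delta PSI ran from -0.00255 to 0.0325 for the MPRIP 120 nt exon, from -0.0111 to 0.0121 for the MPRIP 114 nt exon, from -0.0297 to 0.0271 for the MYO18A 69 nt exon and from -0.017 to 0.0429 for the MYO5A 75 nt exon. With 1 replicate number alone, chosen after seeing the data, it was -0.00731 for the MPRIP 114 nt exon and 0.00927 for the MYO18A 69 nt exon in replicate 1, and -0.016 for the MYO5A 75 nt exon and -0.0311 for the MYO6 exon in replicate 2. In 3 cases a named exon was left untested by an alternative: MYH9 without SCRM replicate 2, MYO6 without RBFOXi replicate 1 and MYO18A 12 nt with the stricter filter. Depth limits MYO6, MYH10 and the 12 nt exon of MYO18A most.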
